A study of Mus musculus with 2 samples.

Results

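The genes carried by mouse mitochondrial DNA were chosen by symbol: every gene whose symbol starts with mt-, which gave 37 of the 43346 mouse genes in the tables. They are 13 protein-coding genes, 2 ribosomal RNA genes and 22 transfer RNA genes, and they are also the 37 genes that the GENCODE M21 annotation of GRCm38 places on chromosome M. Their levels were read in 1 group of 2 libraries of polyadenylated RNA from G1E-ER4, an immortalized mouse erythroid line in which Gata1 was restored in a form that estradiol activates. Both cultures had received 10 nM 17beta-estradiol for 3 h. The libraries are labelled biological replicates 1 and 2 but share 1 cell sample record, so differences between them may be technical. The p-values ask only whether a difference between these 2 libraries exceeds counting noise. Untreated cells were not analysed here, and no effect of estradiol or of GATA1 is tested.

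Mitochondrial DNA is a small circle with few noncoding stretches. Each of its strands is copied into long precursor RNAs, and the tRNAs that lie between most genes are cut out to release the mRNAs and rRNAs. The mRNAs receive short poly(A) tails, which in some of them complete the stop codon, and they are translated on ribosomes inside the organelle into core subunits of respiratory complexes I, III and IV and of ATP synthase (complex V). The other subunits, and the proteins that copy, transcribe and translate mitochondrial DNA, come from nuclear genes. Erythroid cells also use mitochondria for the first and last steps of heme synthesis.

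Of the 37 genes, 28 are copied in the sense of the plus strand of chromosome M and 9, mt-Nd6 and 8 tRNAs, in the sense of the minus strand. The mRNA genes run from 204 to 1824 bases, with a GC content of 31.9% to 41.1%. Of the 13, 9 start with ATG and 4 with another codon (GTG in mt-Nd1, ATA in mt-Nd2, ATT in mt-Nd3 and ATC in mt-Nd5). In 3 of them the gene ends on a lone T that is 1 base past the last whole codon. The last 30 bases of these 3 are shown because their stop codons exist only once a poly(A) tail is added, with the lone T in capitals.
mt-Co3: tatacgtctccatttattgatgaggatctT
mt-Nd4: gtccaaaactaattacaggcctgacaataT
mt-Cytb: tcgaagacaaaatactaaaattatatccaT

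The mRNA genes overlap each other in 4 places, 3 of them between genes on the same strand. A fragment that lies inside such an overlap would belong to both genes by sequence. The counts of mt-Atp8, mt-Nd5 and mt-Nd6 were whole in both libraries, so none of them was divided with a neighbour. The longest overlap joins mt-Atp8 and mt-Atp6 over 43 bases (GRCm38 chromosome M, 7927 to 7969, plus strand). It is shown, in capitals, after the 15 bases of mt-Atp8 before it, and it starts with the ATG of mt-Atp6 and ends with the stop codon of mt-Atp8.
mt-Atp8/mt-Atp6: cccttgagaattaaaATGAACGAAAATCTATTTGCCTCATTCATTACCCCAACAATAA
The 7-base overlap of mt-Nd4l and mt-Nd4 (10167 to 10173) has the same build, with the ATG of mt-Nd4 and the stop codon of mt-Nd4l in capitals.
mt-Nd4l/mt-Nd4: tctcaacctactacaATGCTAA
The overlap of mt-Nd5 and mt-Nd6 (13552 to 13565) lies on opposite strands and holds 14 bases, given in capitals as read along mt-Nd5.
mt-Nd5/mt-Nd6: ttatcttatactcaaTTAATCTCGAGTAA
Whether counting used the strand of the reads is not given in the sources used here, so fragments from the 2 strands cannot be told apart, in that stretch or along the whole of mt-Nd6.

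Expected counts summed to 31126949 for replicate 1 and to 57853596 for replicate 2. All 12 erythroid markers reached 1 TPM (a level scaled to transcript length and to the sum over all transcripts) in both libraries, but their summed level was 2594 TPM in replicate 1 and 18004 TPM in replicate 2. The globin genes Hba-a1 (149 and 6606 TPM) and Hbb-bs (863 and 9484 TPM) carried that gap, and without them the other 10 markers summed to 1582 and 1915 TPM. Single markers among these 10 differed in both directions. Klf1 (786 and 350.5 TPM) and Tfrc (86.5 and 20.6 TPM) were higher in replicate 1. Gata1 (190 and 799 TPM) and Gfi1b (186 and 370 TPM) were higher in replicate 2. Of the 5 megakaryocyte markers, 2 reached 1 TPM in both, with sums of 29.96 and 83.1 TPM and Ppbp at 0. Of the 4 mast cell markers 1 did, with sums of 3.90 and 6.53 TPM and Mcpt4 and Fcer1a at 0. None of 4 granulocyte and monocyte, 4 lymphocyte and 3 fibroblast markers did, and Lyz2, Cd3e and Pdgfra were at 0. The part of these markers in the differences between the libraries was not tested, and in bulk RNA fewer cells of a type and less RNA per cell cannot be told apart.

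Several members cannot be separated by sequence from nuclear copies. A search for stretches of at least 50 bases shared with a mitochondrial gene found 14 nuclear genes that match 10 members. Of these, 7 lie side by side on the minus strand of chromosome 1 (24611535 to 24616197, GRCm38), a run of 4663 bases that the annotation divides into unprocessed pseudogenes. They held 99.99% of the counts placed on copies in each library. Along this run Gm28439 matches the first 876 bases of mt-Nd4, Gm10222 matches mt-Nd4l, Gm28438 mt-Nd3, Gm28437 mt-Co3, Gm10925 mt-Atp6, Gm28661 mt-Co2 and Gm29216 the last 492 bases of mt-Co1. Gm28439, Gm10222, Gm28437, Gm10925 and Gm28661 have no mismatch over the aligned length.

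The 3′ ends of 4 members show how little separates a gene from its copy. Capitals mark the bases that the copy's gene model lacks, and every base before them is shared.
mt-Co3 against Gm28437: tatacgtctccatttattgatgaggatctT
mt-Co2 against Gm28661: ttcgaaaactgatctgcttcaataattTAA
mt-Atp6 against Gm10925: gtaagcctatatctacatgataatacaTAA
mt-Nd4l against Gm10222: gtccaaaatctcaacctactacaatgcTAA
Gm28438 differs from mt-Nd3 by 1 substitution over its aligned length, T3C, with positions counted from 1 at the 5′ end of the mitochondrial gene and the mitochondrial base given first. The first 28 bases of both are shown with that base in capitals.
mt-Nd3: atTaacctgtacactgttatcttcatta
Gm28438: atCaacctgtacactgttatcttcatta
Gm29216 differs from mt-Co1 by 6 substitutions, T1056A, C1057T, A1059G, A1060G, C1062A and A1066T, all at the start of the copy. Bases 1054 to 1091 of mt-Co1 and the matching bases of the copy are shown with the differing bases in capitals, and the rest of the aligned stretch is identical.
mt-Co1: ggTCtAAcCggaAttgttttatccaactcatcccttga
Gm29216: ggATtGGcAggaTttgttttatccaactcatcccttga

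The deposited counts divide shared fragments between a member and its copy, and the division was unstable. For mt-Co3, which encodes a core subunit of cytochrome c oxidase, 5272 counts fell on the gene and 7370 on its copy in replicate 1, against 71.75 and 9833 in replicate 2. The authors' posterior mean counts of the same gene were 5516 ± 3227 and 3190 ± 2810 (posterior SD). The sum of gene and copy was the same under both estimates, 12642 counts in replicate 1 and 9905 in replicate 2. Only the division differed, and it was the part that the 2 estimates placed apart.

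The gene of the second oxidase subunit, mt-Co2, was given 1681 counts against 16925 on copies in replicate 1. In replicate 2 it was given 1036 against 12059. Its posterior means were 6714 ± 3863 and 4541 ± 2815 counts, several times the deposited expected counts. For mt-Atp6, which encodes the proton channel subunit of ATP synthase, 12748 counts stood against 14793 on Gm10925 in replicate 1 and 6155 against 18141 in replicate 2. The posterior share of that copy was 42.8% and 50.9%, lower than the 53.7% and 74.7% of the expected counts.

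The other 3 divisions were tighter. The complex I gene mt-Nd4l held 986 counts and Gm10222 held 10503 in replicate 1, and in replicate 2 they held 1533 and 4925. Both estimates placed most of the sum on the copy, 91.4% and 91.0% in replicate 1 and 76.3% and 77.2% in replicate 2. For mt-Co1, the catalytic subunit gene of the oxidase, copies took 37.4% of the sum in replicate 1 and 24.0% in replicate 2 under both estimates. For mt-Nd3 they took 6.87% and 0%, or 14.1% and 5.08% by posterior means. Gm28439, the identical copy of the first part of mt-Nd4, had no count in either library. Over all members with their copies, copies held 22.8% of the counts in replicate 1 and 21.3% in replicate 2 (22.0% ± 1.04, SD, n = 2). Each affected gene is therefore given alone and summed with its copies, and which source its fragments had was not tested.

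**Figure D1:**
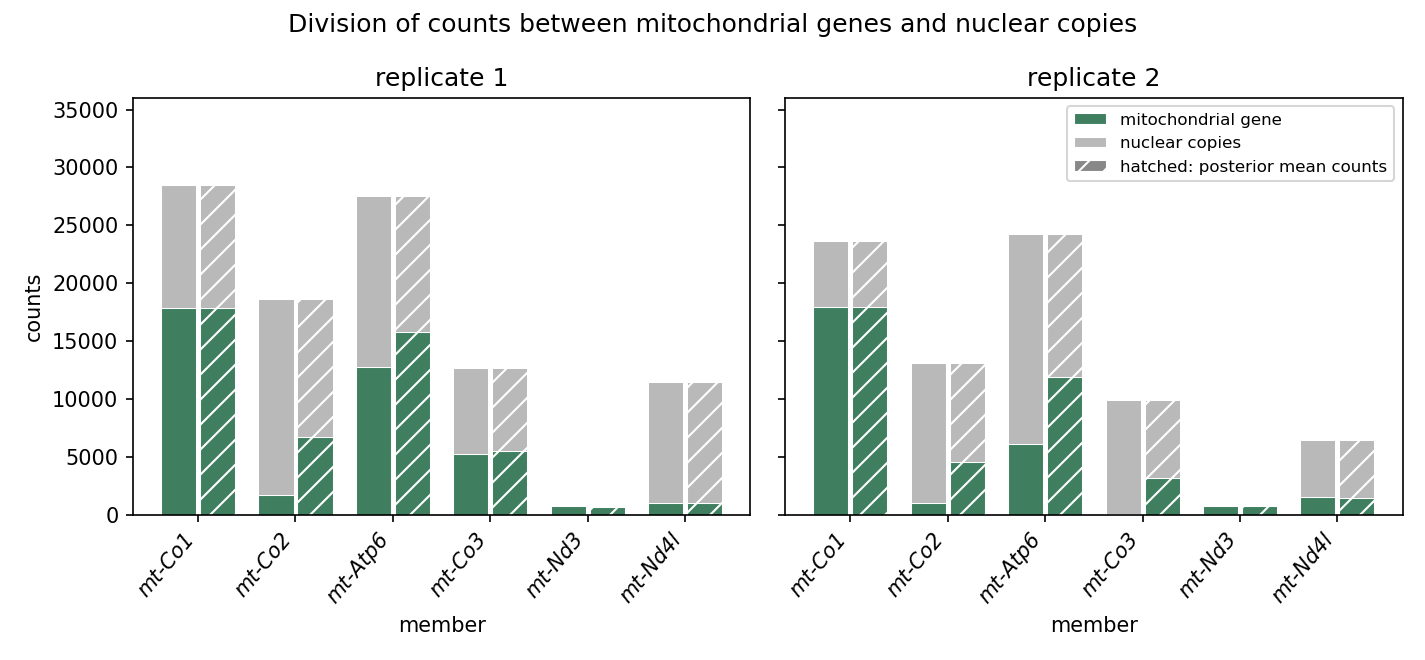
Counts placed on 6 mitochondrial genes (green) and on their nuclear copies (grey) in each replicate, as deposited expected counts (plain bars) and as posterior mean counts (hatched bars). The bars of a gene have equal height under both estimates, while the green part of mt-Co3 in replicate 2 goes from 71.75 to 3190 counts.

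Mitochondrial genes held a small and uneven share of the libraries. They took 0.657% of expected counts in replicate 1 and 0.323% in replicate 2, or 0.490% ± 0.236 (SD, n = 2). Of TPM they took 1.01% and 0.511%, or 0.759% ± 0.352. With nuclear copies added, the shares were 0.851% and 0.411% of counts and 1.68% and 0.748% of TPM. Each share was about as far apart between the libraries as the others, with ratios from 1.97 to 2.25, and all were higher in replicate 1.

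All 13 mRNAs and both rRNAs were above 1 TPM in both libraries. The deposited interval of a gene belongs to its posterior mean TPM, which lay inside it for all 15 genes, whereas the TPM itself lay outside for 8 genes in replicate 1 and 5 in replicate 2. The level of confidence of these intervals is not given in the sources used here. The median of the 13 mRNAs was 511 TPM in replicate 1 and 222 TPM in replicate 2 (366 TPM ± 204, SD, n = 2), beside medians of 18.2 and 17.9 TPM over all detected genes. With the TPM of copies added, the median was 1334 and 509 TPM. Gm29216 covers only part of mt-Co1, so adding its TPM counts a short stretch as a whole transcript, and with the summed counts of mt-Co1 spread over its own length the medians were 902 and 472 TPM.

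Complex I has 7 mitochondrially encoded subunits, all in its membrane arm. The most abundant of those without a copy at 50 shared bases was mt-Nd1, with 1665 TPM (replicate 1) and 688 TPM (replicate 2). The gene mt-Nd2 stood at 902 and 509 TPM, and mt-Nd5, the longest, at 531 and 300.1 TPM. Further down, mt-Nd4 had 417 and 179 TPM and mt-Nd3 had 140 and 74.3 TPM. Replicate 1 was the higher in each of these 5 genes, and their deposited intervals did not overlap between the libraries. The gene mt-Nd4l stood at 248 and 202 TPM with intervals that overlapped (148 to 359 and 124 to 263 TPM). Summed with Gm10222, it rose to 2935 and 864 TPM, which placed it 1st in replicate 1 and 4th in replicate 2 among the 15 measured genes.

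The seventh complex I gene, mt-Nd6, was the lowest mRNA of replicate 1 (3.79 TPM from 36 counts). In replicate 2 it stood at 14.8 TPM from 284 counts, above only mt-Co3 among the members alone and lowest once copies were added. It is the only mRNA encoded on the opposite strand, and its human counterpart is known to lack the regular poly(A) tail of the others. The genes of the minus strand together held 0.0176% of member counts in replicate 1 and 0.152% in replicate 2, all of it from mt-Nd6. Per base of effective length, mt-Cytb had 677 times the counts of mt-Nd6 in replicate 1 and 75.8 times in replicate 2. If strand was not used, fragments antisense to mt-Nd6 are among its counts, which bears on its level, this share and its difference between the libraries.

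Cytochrome b, encoded by mt-Cytb, is the only mitochondrial subunit of complex III. Its mRNA was the highest in counts, with 64201 in replicate 1 and 58206 in replicate 2, all of them whole. The level was 2569 TPM and 1119 TPM, with narrow deposited intervals of the posterior (2476 to 2515 and 1094 to 1112 TPM). No nuclear copy of mt-Cytb was found at 50 shared bases, while at 30 shared bases the pseudogene Gm11410 matched it. The same held for mt-Nd6, which the pseudogene Gm11408 matched at 30 shared bases. Together, mt-Cytb and mt-Nd1 held 38.4% and 37.8% of mRNA counts with copies included, a split that was close in the 2 libraries.

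All 3 oxidase subunit genes have copies. On its own mt-Co1 stood at 511 and 246 TPM, mt-Co2 at 124 and 37.2 TPM and mt-Co3 at 328 and 2.17 TPM. The intervals of mt-Co2 and of mt-Co3 overlapped between the libraries, and that of mt-Co3 in replicate 2 ran from 1.23 to 226 TPM. Summed with copies, mt-Co2 reached 1377 and 472 TPM and mt-Co3 reached 788 and 299.5 TPM. Spread over its own length, mt-Co1 with its copies reached 816 and 324 TPM. Per base, Gm29216 had 30.02 counts in replicate 1 and 16.7 in replicate 2, more than the 12.7 and 12.9 of mt-Co1, although it repeats only the end of that gene. With copies, complex IV made up 23.4% and 20.2% of mitochondrial mRNA counts, complex I 39.7% and 42.4%, complex III 25.2% and 25.2%, and complex V 11.7% and 12.2%.

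For ATP synthase, mt-Atp6 stood at 944 and 222 TPM alone and at 2045 and 880.1 TPM with Gm10925. The short mt-Atp8, which is read from the same mRNA, stood at 1334 and 1388 TPM. Only 2242 and 3914 counts lay behind those levels, 8.14% and 16.1% of the counts of mt-Atp6 with its copy. The level of mt-Atp8 rests on an effective length, the number of positions a fragment can start from, of 67.8 and 53.8 of its 204 bases. Effective lengths of long genes fell short of gene lengths by 136 bases in replicate 1 and 152 in replicate 2, so the TPM of the shortest genes depends most on fragment length.

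The rRNAs were detected at lower levels than most mRNAs. The small subunit rRNA, mt-Rnr1, stood at 217 and 81.4 TPM and the large subunit rRNA, mt-Rnr2, at 149.5 and 43.9 TPM. Together they made up 4.78% of member counts in replicate 1 and 3.59% in replicate 2. These libraries were made from polyadenylated RNA, so the levels do not give the amount of rRNA in the cells.

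The 22 tRNAs had no count in either library. They are 59 to 75 bases long, and all of them had an effective length of 0 in both libraries. The longest gene with an effective length of 0 had 109 bases in replicate 1 and 113 in replicate 2. A value of 0 here therefore says nothing about the amount of tRNA. The longest and shortest are shown to give the scale of what these libraries could not count.
mt-Tl1: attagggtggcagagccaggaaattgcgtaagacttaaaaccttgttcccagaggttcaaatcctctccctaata
mt-Ts2: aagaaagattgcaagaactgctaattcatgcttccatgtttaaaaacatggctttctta

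**Figure D2:**
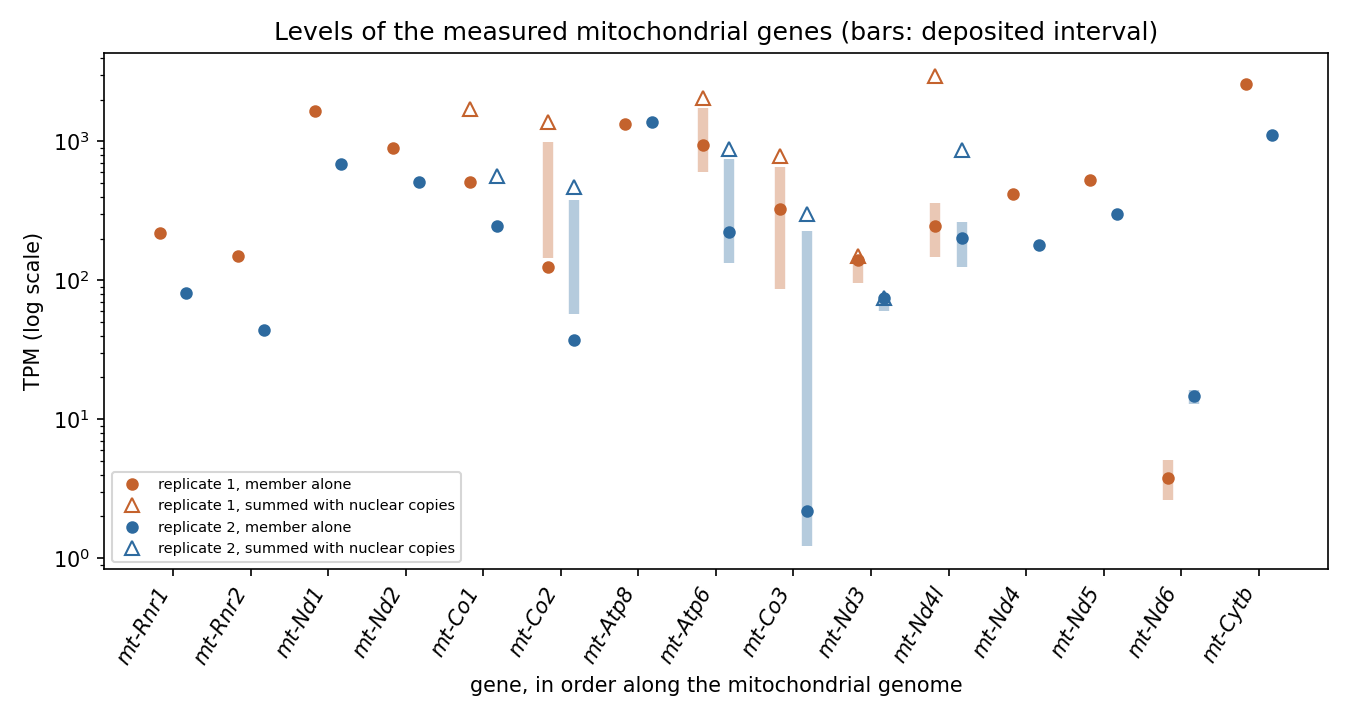
TPM on a log scale of the 15 measured members, in order along the mitochondrial genome, in replicate 1 (orange) and replicate 2 (blue). Filled circles are the deposited values of the member alone, bars the deposited interval and open triangles the TPM summed with nuclear copies. For mt-Co1 the triangles (1721 and 564 TPM) add the TPM of copies as it stood and are not spread over its own length. Bars are long for mt-Co2, mt-Atp6 and mt-Co3, and mt-Nd6 lies at 3.79 and 14.8 TPM.

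Ordered by mean level with copies (mt-Co1 over its own length), mt-Nd4l (1899 TPM ± 1465, SD, n = 2), mt-Cytb (1844 ± 1025) and mt-Atp6 (1463 ± 824) came first. They were followed by mt-Atp8, mt-Nd1, mt-Co2, mt-Nd2, mt-Co1, mt-Co3, mt-Nd5, mt-Nd4, mt-Rnr1, mt-Nd3 and mt-Rnr2. The last was mt-Nd6 at 9.28 TPM ± 7.76. Of the 14 pairs of neighbours in this order, 13 differed in mean by less than the larger of their SDs, and mt-Rnr2 and mt-Nd6 differed by more. The place of mt-Nd4l rests mostly on counts given to Gm10222 and on its own short effective lengths, 161 and 145 bases. With that copy its TPM was 7.04 and 4.82 times that of mt-Nd4, which it overlaps. For correlations with copies, the TPM of copies was added as it stood, so mt-Co1 counted at 1721 and 564 TPM. Across the 13 mRNAs with copies, Pearson's r of log2(TPM + 1) between the libraries was 0.957 and Spearman's rho 0.846. Without mt-Nd6 they were 0.923 and 0.804, and for the 13 mRNAs alone 0.696 and 0.885. Genes are not independent replicates, and both libraries share the same gene lengths. The division of fragments between members and copies differed between the libraries.

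Most mitochondrial transcripts were higher in replicate 1. An exact conditional binomial test on counts scaled by TMM, which compares these 2 libraries and not conditions, was run wherever both libraries together held at least 20 counts. It called 14 of the 15 measured members at a Benjamini-Hochberg adjusted p of 0.05, beside 80.7% of all 10635 genes tested. Higher in replicate 1 were 12 members, beside 37.4% of all genes, and higher in replicate 2 were 2, beside 43.3% of all genes. By at least 1.5-fold, 10 members were higher in replicate 1, beside 20% of all genes. The deposited intervals were apart for 10 of the 15, beside 72.9% of all genes. With most genes called, the count of members called is near the background, and the direction is where the members and all genes differ.

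For 6 of the members higher in replicate 1 the expected counts were whole in both libraries. Among them, mt-Rnr2 was 2.68-fold, mt-Rnr1 2.12-fold, mt-Nd1 1.93-fold, mt-Nd4 1.84-fold, mt-Cytb 1.82-fold and mt-Nd5 1.39-fold higher in scaled counts. For mt-Nd2, with 2.14 counts on a copy in replicate 1, the difference was 1.41-fold. Summed with their copies, mt-Nd4l was 2.93-fold, mt-Co2 2.34-fold, mt-Co3 2.10-fold, mt-Co1 1.99-fold, mt-Atp6 1.87-fold and mt-Nd3 1.70-fold higher in replicate 1. Taken alone, mt-Co3 differed 117-fold, and mt-Nd4l differed 1.06-fold and was not called (adjusted p = 0.175, exact binomial test). With copies, 13 members were called higher in replicate 1 and 2 in replicate 2.

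The gene mt-Nd6 went the other way, 4.63-fold higher in replicate 2 (adjusted p = 7.52e-26, exact binomial test). For mt-Atp8 the scaled counts were 1.06-fold higher in replicate 2 (adjusted p = 0.0402, exact binomial test). That call was lost with DESeq2 size factors (adjusted p = 0.0670) and with a minimum summed count of 1 (adjusted p = 0.0566), and with total counts the direction turned (log2 ratio -0.09, adjusted p = 0.0236). The median log2 ratio of replicate 2 over replicate 1 was -0.71 over the 13 mRNAs and -0.88 with copies, against 0.06 over all genes tested. Scaling by total counts moved the median of all genes to -0.11 and that of the mRNAs to -0.89. The share of called genes that were higher in replicate 1 then went from 46.4% to 55.3%.

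**Figure D3:**
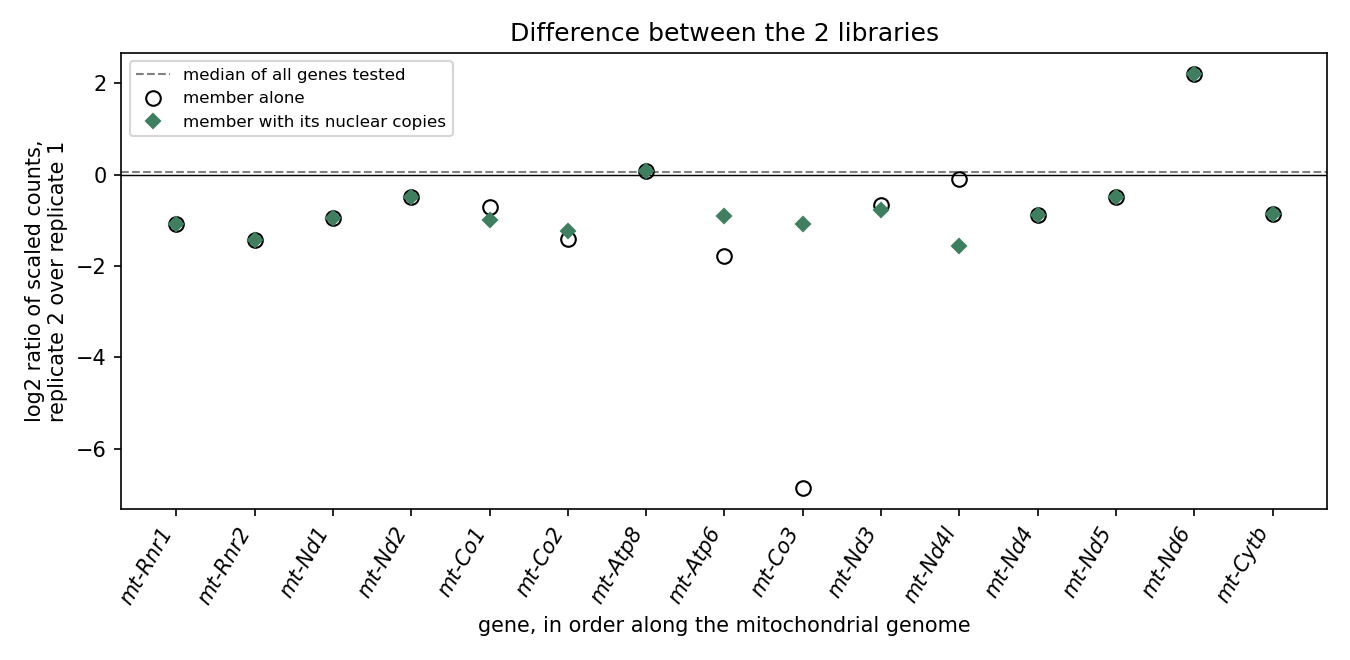
Log2 ratio of scaled counts, replicate 2 over replicate 1, for the 15 measured members alone (open circles) and with nuclear copies (green diamonds), in genome order. The dashed line is the median of all genes tested, 0.06; mt-Co3 moves from -6.87 alone to -1.07 with its copy, and mt-Nd6 lies at 2.21. Under total counts mt-Atp8 falls below 0.

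The nuclear genes that maintain, transcribe and translate mitochondrial DNA did not share 1 direction. Log2 ratios given for them are of scaled counts, replicate 2 over replicate 1, and differ from the ratio of 2 TPM values. Of 170 listed genes, 169 were tested and 139 called (82.2%, beside 80.7% of all genes), with a median log2 ratio of -0.12. Higher in replicate 1 were 73 and higher in replicate 2 were 66, beside 37.4% and 43.3% of all genes, so the counts are near the background. Of the 13 genes of mtDNA replication and the nucleoid, 9 were higher in replicate 1 and 2 in replicate 2. Polg, the catalytic subunit of the mitochondrial DNA polymerase, led the list at 187 TPM ± 17.6 (SD, n = 2), ahead of the ligase Lig3 (80.4 ± 22.1) and the thymidine kinase Tk2 (33.7 ± 9.58). The single-strand binding protein gene Ssbp1 had a log2 ratio of -0.72 and Primpol, the lowest at 0.745 TPM, of -0.92. In the other direction, Rnaseh1, which removes RNA paired with DNA, had 1.10 and the topoisomerase gene Top1mt 0.28.

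Of 9 transcription genes, 8 were tested. Of these, 1 was higher in replicate 1 and 3 in replicate 2, beside 37.4% and 43.3% of all genes. The polymerase gene Polrmt stood at 44.6 and 45.0 TPM, and its scaled counts were called higher in replicate 2 (log2 ratio 0.24). Mrpl12, a ribosomal protein also reported to bind the polymerase, had 645 TPM ± 21.7 and a log2 ratio of 0.40. Mterf3 had a log2 ratio of 0.92, and Tfb2m, needed to start transcription, had -0.57. Mterf1b, at 0.12 TPM, had too few counts to test.

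Of 23 RNA processing and stability genes, 12 were higher in replicate 1 and 6 in replicate 2, beside 37.4% and 43.3% of all genes. Lrpprc, whose protein stabilises mitochondrial mRNAs, had 38.4 TPM (replicate 1) and 10.9 TPM (replicate 2), with a log2 ratio of scaled counts of -1.45. Fastkd2 had a log2 ratio of -1.29. Hsd17b10, a subunit of the enzyme that cuts the 5′ ends of tRNAs, stood at 11.7 and 42.0 TPM with a log2 ratio of scaled counts of 2.21, and the pseudouridine synthase gene Trub2 had 1.20. The exonuclease genes Rexo2 (366 TPM ± 132) and Pnpt1 (284 TPM ± 57.1) and Fastk (269 TPM ± 42.2) were highest, and 1110008L16Rik lowest at 1.46 TPM.

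Of 17 rRNA and tRNA modification genes, 10 were higher in replicate 1 and 5 in replicate 2, beside 37.4% and 43.3% of all genes. Pus1 (202 TPM ± 65.2), Gtpbp3 (49.7 ± 19.3) and Trmu (48.4 ± 15.7) were highest and Nsun4 (0.265 TPM) lowest. Mettl15 and Trnt1, which adds the CCA end of tRNAs, had log2 ratios of -1.67 and -0.97, while Mettl17 and Trmu had 3.72 and 1.57. Of 13 translation factors, 4 were higher in replicate 1 and 5 in replicate 2, beside the same shares of all genes. Gfm2 and Mtif3 had log2 ratios of 2.60 and 2.22, Mtrf1l and Mtrf1 of -1.29 and -0.99, and Tsfm, the highest at 78.1 TPM, was not called, nor was Mrpl58 (52.3 TPM). Oxa1l, which inserts proteins into the inner membrane, had 71.3 TPM ± 3.34. Of 20 genes that charge tRNAs, 9 were higher in replicate 1 and 7 in replicate 2, again beside 37.4% and 43.3%. Here Tars2 and Gatb had log2 ratios of 2.77 and 2.40 and Nars2 of -1.25. Vars2 (143.6 TPM) was highest and not called, followed by Yars2 (75.3) and Sars2 (59.2), with Wars2 lowest at 0.445 TPM.

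Of 29 genes of the small subunit of the mitochondrial ribosome, 13 were higher in replicate 1 and 11 in replicate 2. Of 48 genes of the large subunit, 15 were higher in replicate 1 and 28 in replicate 2. Beside both lists stand 37.4% and 43.3% of all genes. Single subunits differed widely. Mrps21 stood at 7.87 and 199.8 TPM and Mrps25 at 1.19 and 17.5 TPM, and their log2 ratios of scaled counts were 4.88 and 2.33. Mrpl32 and Mrpl46 had log2 ratios of 3.10 and 3.02, while Mrpl3 had -1.66, Mrps10 -1.14 and Mrps6 -0.76. Mrpl52 (2676 TPM ± 782), Mrpl2 (719.6 ± 14.6) and Mrpl54 (664 ± 18.7) led the large subunit, with Mrpl35 lowest at 0.960 TPM. Mrps12 (534 ± 191), Mrps23 (337 ± 59.1) and Mrps15 (287 ± 85.4) led the small subunit, with Mrps31 lowest at 2.39 TPM.

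The nuclear subunits of the same respiratory complexes had a median log2 ratio of 0.22. These lists, and those of the mitochondrial ribosome, were drawn by gene symbol, so some listed genes may not be subunits of the complex named. By complex, the medians were 0.53 for I, -0.24 for III, -0.09 for IV and 0.31 for V. Of 73 tested, 63 were called (86.3%, beside 80.7% of all genes), 23 higher in replicate 1 and 40 in replicate 2, beside 37.4% and 43.3% of all genes. For complex I the numbers were 10 and 24 of 37, for complex III 5 and 2 of 9, for complex IV 4 and 4 of 10, and for complex V 4 and 10 of 17. In complex I, Ndufa1 stood at 10.8 and 368 TPM and Ndufa2 at 6.11 and 164.7 TPM. Their log2 ratios of scaled counts were 5.33 and 5.02, while Ndufs5 and Ndufs3 had -1.26 and -1.10. Ndufab1 (2335 TPM ± 906), Ndufa12 (1437 ± 166) and Ndufa7 (652 ± 432) were its highest and Ndufs4 its lowest at 1.61 TPM.

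In complex III, Uqcr11 (2535 TPM ± 329) was highest and not called, ahead of Uqcrc1 (745.1 ± 209) and Cyc1 (448 ± 203). Uqcrq had a log2 ratio of 2.65 and Uqcrh of 0.47, against -0.92 for Uqcr10 and -0.80 for Uqcrc2, the lowest at 10.1 TPM. In complex IV, Cox5b (3704 TPM ± 2227), Cox6a1 (2073 ± 191) and Cox5a (1152 ± 347) were highest and Cox7a2 lowest at 12.5 TPM. Cox7c and Cox6a1 had log2 ratios of 3.07 and 0.49 and Cox6c and Cox5b of -0.66 and -0.41. In complex V, Atp5b (3757 TPM ± 2149), Atp5g3 (1848 ± 17.8) and Atp5d (1623 ± 272) were highest and Atp5s lowest at 0.345 TPM. Atp5g2 and Atp5h had log2 ratios of 3.00 and 2.71, and Atp5j and Atp5e had -0.73 and -0.70. Whether the lists differ from the mitochondrial mRNAs was not tested, and the ratios are set side by side.

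**Figure D4:**
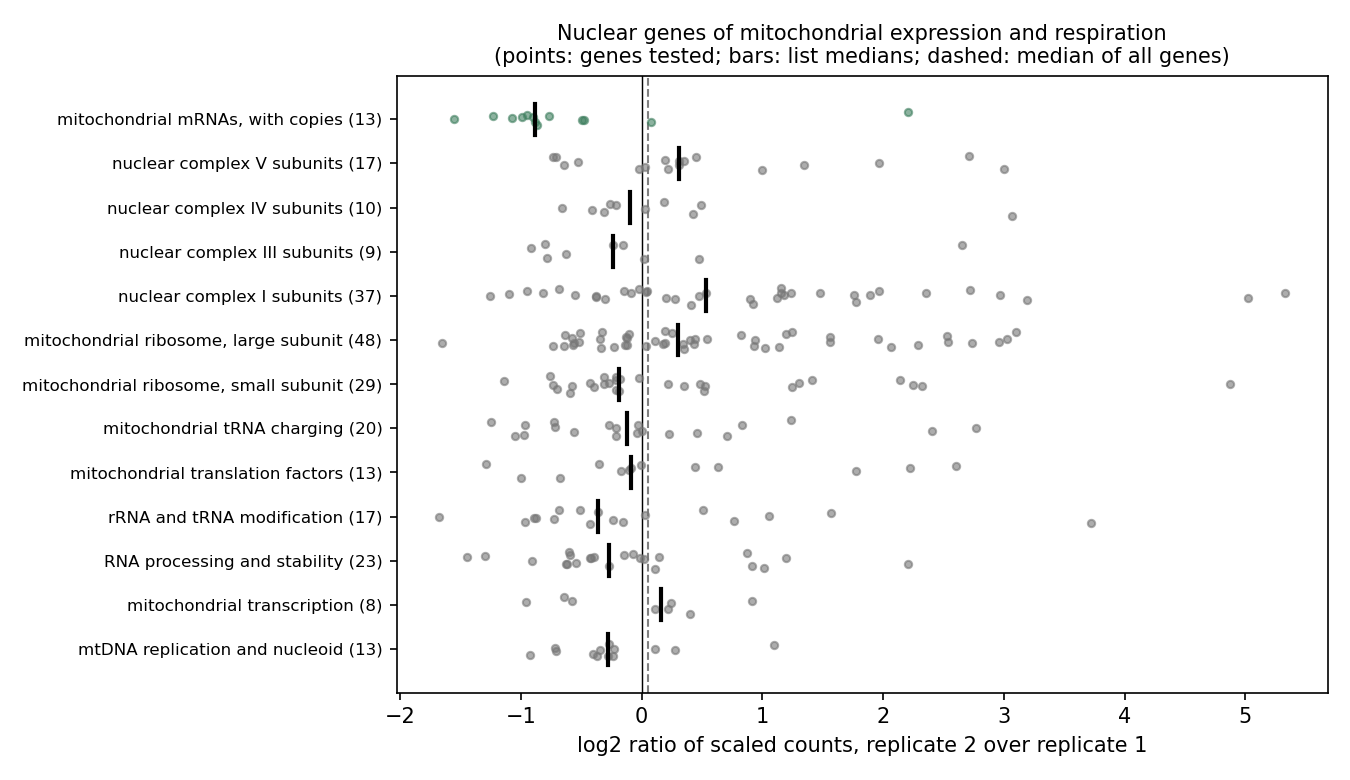
Log2 ratio of scaled counts, replicate 2 over replicate 1, for each tested gene (points) of the nuclear lists and for the 13 mitochondrial mRNAs with copies (green), with list medians as black bars and the median of all genes as a dashed line. The mitochondrial mRNAs have a median of -0.88, and the nuclear lists have medians from -0.36 to 0.53 with members on both sides of 0.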

How the data were processed

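Polyadenylated RNA was sequenced in paired ends in 2 libraries. Per the text deposited beside the tables, reads were aligned to mm10 and quantified on GENCODE M4 by the authors; which aligner and quantifier they used is not given in the sources used here. The deposited expected counts are estimated fragments per gene, not normalised, and need not be whole. The deposited TPM and FPKM values are scaled by the authors to effective length and library size, and posterior means, SDs and interval bounds are theirs too. FPKM served only as an alternative.

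Members were matched by gene identifier to a symbol, and M21 models on GRCm38 supplied coordinates and sequences. The deposited lengths of all 37 members equal those of M21. Nuclear copies are genes that share at least 50 bases with a member. Counts were called whole within 0.005.

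Expected counts were rounded, and genes with a summed count of at least 20 were compared with an exact conditional binomial test, two-sided (scipy 1.17.1), on TMM library sizes (edgeR 4.0.16), with Benjamini-Hochberg adjustment over all genes at 0.05. It measures counting noise only. With 1 library on each side, a quasi-likelihood fit in edgeR leaves no residual degrees of freedom. Log2 ratios used a prior count of 2. The test was checked on simulated data with counting noise of the kind it assumes. That check does not cover counts that were divided between a gene and its copy. Alternatives included total counts, DESeq2 1.42.0 size factors, other count minimums, posterior means and, added after seeing the data, sums with nuclear copies.

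Named are all members and, of each nuclear list, the 3 highest, the lowest and the 2 largest log2 ratios in each direction among called genes; of copies, the 5 with most counts and any with at least 1% of its member's counts. Gm28439, Ppbp, Lyz2, Gm11410, Gm11408 and the other markers given with values were named after their values were seen. A gene that this rule names is not reported here. The members and lists were chosen with earlier results of these data known.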

Additional observations from a re-analysis of the deposited data

How the results depend on the processing

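Adding nuclear copies, an alternative chosen after seeing the data, moved the mitochondrial share of TPM to 1.21% and the median TPM of the 13 mRNAs to 922. It moved the rRNA share of member counts from 4.18% to 3.26%, and taking that share from TPM gave 3.05%. With posterior mean counts, copies held 17.9% of the counts in place of 22.0%. Left with 1 library at a time, the share of TPM ranged from 0.511% to 1.01%, the share of counts from 0.323% to 0.657% and the median TPM from 222 to 511. The cause of these changes was not tested. Members called ranged from 13 to 15 over the scalings, count minimums and estimates tried and was 11 with a 1.5-fold minimum. Machinery genes called ranged from 135 to 150. Leaving out a library was not run for the comparison between the libraries, which needs both. No paired analysis was possible because there is 1 group. The fewest counts lay behind mt-Nd6, 36 in replicate 1.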
